A study of Mus musculus with 10 samples.

Results

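Signals of 10 gut hormone genes were followed along the intestine of male ICR mice, an outbred stock, at 4 and at 28 months of age. The genes were Gip, Cck, Sct, Sst, Nts, Gcg, Pyy, Insl5, Ppy and Chga, and each was read by 1 probe set whose annotation names that gene alone, 10 probe sets of 45101 and 10 genes of 18194 on the array. The tissues were jejunum, ileum and distal colon, with liver and spleen of the same mice beside them. Equal amounts of RNA were pooled from 6 mice at 4 months or from 9 mice at 28 months, and each pool was hybridised to 1 Affymetrix mouse expression array, which reads a transcript by short probes near its 3' end. The 10 groups therefore held 1 array each, the number of arrays limits the precision, and a difference between ages within a segment had no replicate check. All mice were housed singly on the AIN-93 diet; the older ones were obtained at 8 months of age and the younger ones at 2 months. For the 3 intestinal arrays of 28 months the protocol also describes mice given that diet with LB81 yogurt. Their titles name no diet, and the 9 mice in the series' design match the number of control mice in that protocol. These 3 arrays were also registered apart from the others and titled in another form. In the intestine, age cannot be told apart from that grouping, and whether they were hybridised apart is not known here. Where along each segment the tissue was taken, and which cells it held, is not given in the labels.

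Enteroendocrine cells are scattered single cells of the intestinal epithelium that sense the contents of the lumen and release peptide hormones into the blood. They are known for dividing the gut between them: cells that make the incretin GIP and cholecystokinin are typical of the upper small intestine, neurotensin and the proglucagon peptides GLP-1 and GLP-2 of the ileum, and peptide YY and INSL5 of the colon. Chromogranin A, the product of Chga, is a protein of their secretory granules in many endocrine cell types. In pooled tissue RNA, fewer cells of a type and less RNA per cell cannot be told apart.

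Signals are given in arbitrary units after every array was scaled to the same trimmed mean of 500 units. A signal under 111 units, the median of all signals, is called below the floor, and the level of one probe set is not compared with that of another. A gene counted as higher or lower at 28 months from 2-fold, and where 1 age was below the floor the fold is a bound computed against the floor. All 10 genes were above the floor on at least 1 intestinal array, and Gcg, Sct, Sst, Pyy and Chga were so on all 6. Liver and spleen served as tissues expected to hold few such cells: 7 of the 10 genes were below the floor on all 4 of their arrays. The other 3 were Sct, at 161 to 204 units, Sst, at 91.8 to 127 units, and Pyy, at 88.0 to 119 units. Correlations between the ages of a tissue over all probe sets were 0.987 to 0.992, and Fabp6, an ileal bile acid binding protein, was 20178 and 35830 units in ileum against 46.4 and 52.1 units in jejunum. Lct, the gene of lactase and the jejunal marker of the label check, told the segments apart at 28 months, with 3600 units in jejunum and 92.1 units in ileum, but not at 4 months, when ileum was the brighter, at 14054 against 12629 units.

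**Figure D1:**
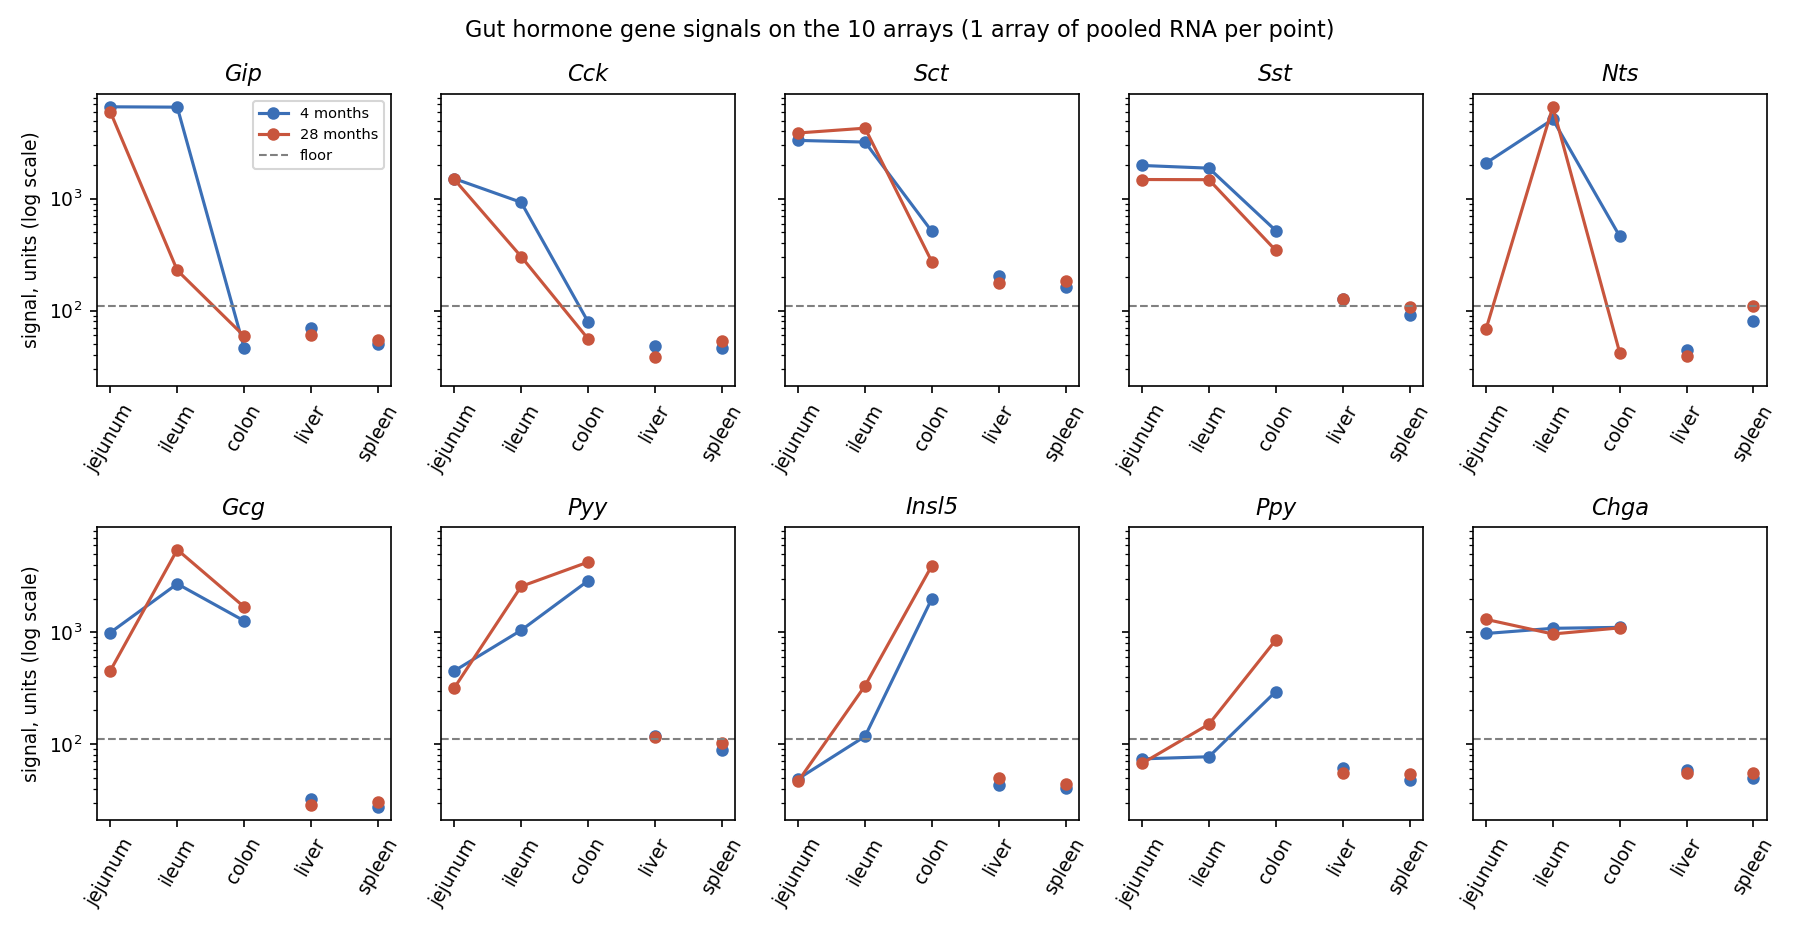
Signal of each gut hormone gene on the 10 arrays, in units on a log scale, with 1 point per array of pooled RNA, lines joining the 3 intestinal segments and a dashed line at the floor of 111 units. Gip in ileum goes from 6588 units at 4 months to 229 units at 28 months, while in jejunum it stays at 6633 and 5964 units.

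Among the hormones of the upper gut, Gip, which encodes the glucose-dependent insulinotropic polypeptide that augments insulin release after meals, was as bright in ileum as in jejunum at 4 months and mostly a jejunal signal at 28 months. Its signal was 6633 units in jejunum and 6588 units in ileum at 4 months. At 28 months it was 5964 units in jejunum and 229 units in ileum. Ileum at 28 months thus stood apart from the other 3 small intestinal arrays, while distal colon, at 46.6 and 59.2 units, was below the floor at both ages. The ileal signal was 28.8-fold lower at 28 months, a log2 ratio of -4.85, and the jejunal log2 ratio was -0.15. Jejunum held 50.0% of the signal summed over the 3 segments at 4 months and 95.4% at 28 months.

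Cck encodes cholecystokinin, which contracts the gall bladder and stimulates pancreatic secretion. Its signal in jejunum was 1513 units at 4 months and 1488 units at 28 months. In ileum it was 929 and 304 units, 3.06-fold lower at 28 months, with a log2 ratio of -1.61. Jejunum was the brightest segment at both ages, by 1.63-fold over ileum at 4 months and by 4.90-fold at 28 months, and distal colon, at 79.5 and 56.0 units, was below the floor. The ileal call did not hold with the floor at the 75th percentile of signals, where the log2 ratio was -0.95.

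Sct, the gene of secretin, which stimulates bicarbonate secretion by the pancreas, and Sst, the gene of the inhibitory hormone somatostatin, were spread evenly over the small intestine at both ages. The signal of Sct was 3322 and 3871 units in jejunum at 4 and 28 months, 3209 and 4273 units in ileum, and 510 and 273 units in distal colon. Its brightest segment was jejunum at 4 months, by 1.04-fold over ileum, and ileum at 28 months, by 1.10-fold over jejunum, so the order of the small intestinal segments turned on small differences. Sst gave 1983 and 1485 units in jejunum, 1876 and 1480 units in ileum, and 519 and 345 units in distal colon. Its log2 age ratios were -0.42, -0.34 and -0.59 in that order, below 0 in all 3 segments but short of 2-fold in each. Those of Sct were 0.22, 0.41 and -0.90. Somatostatin is also made by enteric neurons and by pancreatic islets, so its signal need not come from the epithelium alone.

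Of the ileal hormones, Nts, which encodes neurotensin, a peptide that slows gut motility and favours fat uptake, was confined to ileum among the 3 segments at 28 months as far as signals above the floor go. In ileum its signal was 5124 units at 4 months and 6628 units at 28 months. In jejunum it was 2081 units at 4 months and 67.9 units, below the floor, at 28 months. In distal colon it was 463 units and then 42.2 units, again below the floor. The signal at 28 months was at least 18.8-fold lower in jejunum and at least 4.18-fold lower in distal colon, whereas the ileal log2 ratio was 0.37. The bounds depend on the floor: at the 75th percentile of signals the jejunal log2 ratio was -2.11, and in distal colon both ages were below the floor. Ileum exceeded jejunum by 2.46-fold at 4 months and by at least 59.9-fold at 28 months.

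Gcg encodes proglucagon, which intestinal cells cut into GLP-1 and GLP-2. It was brightest in ileum at both ages, and its age ratios were opposite in the small intestinal segments. Its signal was 994 and 454 units in jejunum at 4 and 28 months, 2708 and 5474 units in ileum, and 1264 and 1685 units in distal colon. The jejunal signal was 2.19-fold lower and the ileal signal 2.02-fold higher at 28 months, with log2 ratios of -1.13 and 1.02, and the log2 ratio in distal colon was 0.41. Both calls lay close to the 2-fold threshold: with the median ratio of 12 epithelial genes subtracted, the log2 ratios were -0.98 and 0.90 and neither reached it. The share of ileum in the signal of the 3 segments was 54.5% at 4 months and 71.9% at 28 months.

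The hormones of the distal gut were brightest in distal colon at both ages, and their ratios in ileum were all above 0. Pyy encodes peptide YY, which slows transit and curbs appetite. Its signal was 451 and 318 units in jejunum, 1041 and 2568 units in ileum, and 2879 and 4236 units in distal colon at 4 and 28 months. It was 2.47-fold higher at 28 months in ileum, a log2 ratio of 1.30, against -0.50 in jejunum and 0.56 in distal colon. Distal colon exceeded ileum by 2.77-fold at 4 months and by 1.65-fold at 28 months.

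Insl5, an insulin-like peptide of colonic endocrine cells, was below the floor in jejunum at both ages, with 48.9 and 46.6 units. It gave 117 and 332 units in ileum and 1998 and 3940 units in distal colon. The ileal signal was 2.83-fold higher at 28 months, a log2 ratio of 1.5, from a level just over the floor, and both ages were below a floor at the 75th percentile. The colonic signal was 1.97-fold higher, a log2 ratio of 0.98 that lay just under the threshold and passed it when arrays were scaled to equal medians, at 1.01. Ppy, the gene of pancreatic polypeptide, a relative of peptide YY, was below the floor in jejunum, at 73.8 and 67.2 units, and in ileum at 4 months, at 77.0 units. It reached 151 units in ileum at 28 months, at least 1.36-fold higher. In distal colon it was 295 units at 4 months and 852 units at 28 months, 2.89-fold higher, with a log2 ratio of 1.53. With the floor at the 75th percentile the colonic ratio was 0.83 and no longer called. Pyy and Ppy are neighbouring genes on chromosome 11.

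Chga had the flattest profile of the 10 genes. Its signal was 974 and 1304 units in jejunum, 1084 and 964 units in ileum, and 1105 and 1094 units in distal colon at 4 and 28 months. The brightest segment exceeded the dimmest by 1.13-fold at 4 months and by 1.35-fold at 28 months, and the log2 age ratios were 0.42, -0.17 and -0.02. In liver and spleen it was 49.9 to 58.4 units, below the floor, so the level in all 6 intestinal arrays stood well over that in both other tissues.

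The segment of highest signal was the same at both ages for 8 of the 10 genes, the exceptions being Sct and Chga, and 68.8% of all 13136 genes measured in the intestine kept theirs too. Gip, Cck and Sst were brightest in jejunum, Nts and Gcg in ileum, and Pyy, Insl5 and Ppy in distal colon. The lead of jejunum over ileum was small for Sst, 1.06-fold at 4 months and 1.003-fold at 28 months, and for Gip at 4 months, 1.007-fold. The brightest and the dimmest segment differed by 2-fold or more for 9 of the 10 genes at 4 months and for the same 9 at 28 months, all but Chga, against 19.8% and 17.5% of all genes. The share of the brightest segment was larger at 28 months for 7 of the 10, among them Gip, Nts, Gcg, Cck and Ppy, against 49.1% of all genes. For Sct and Chga, which also count here, the brightest segment itself differed between ages. For Sst, Pyy and Insl5 that share was smaller at 28 months, at 44.9%, 59.5% and 91.2% against 45.3%, 65.9% and 92.3%.

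**Figure D2:**
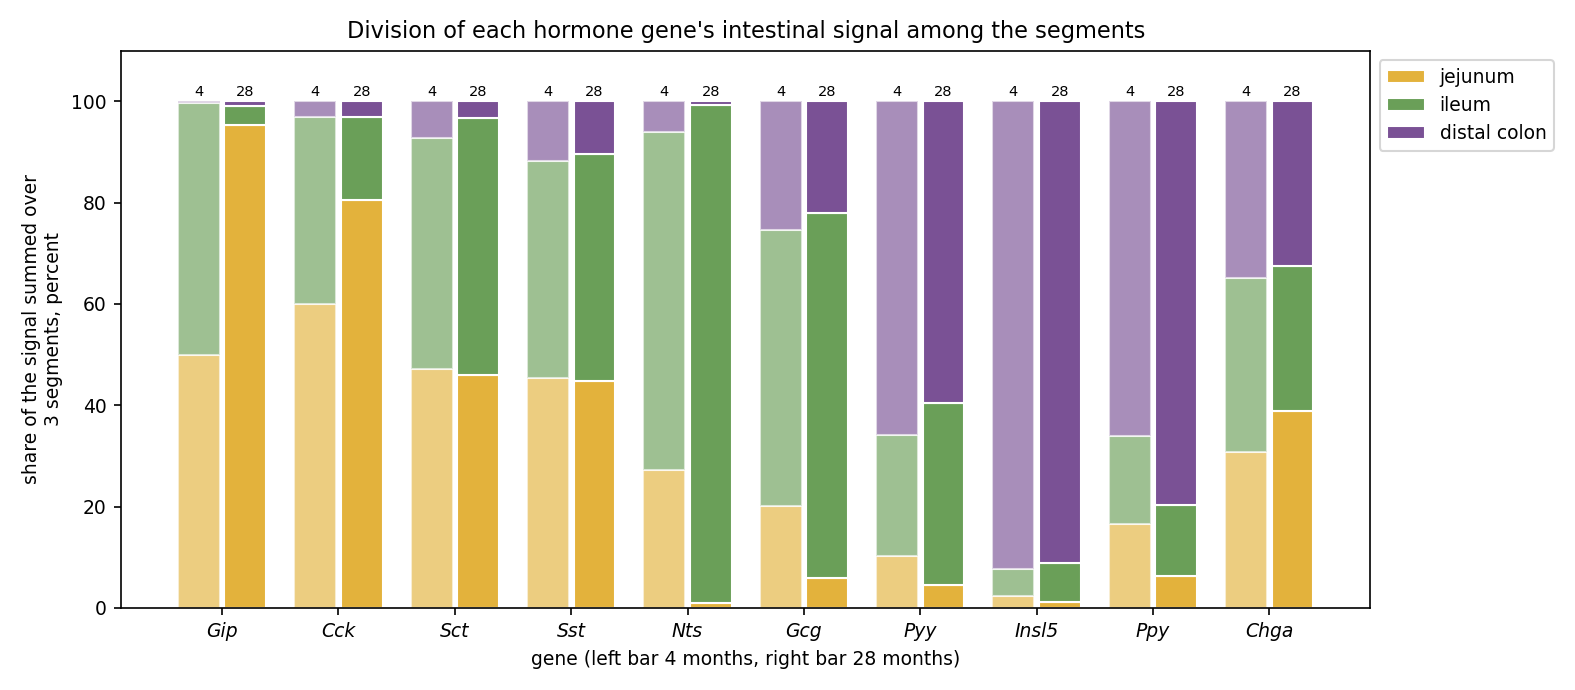
Share of jejunum, ileum and distal colon in the signal of each gene summed over the 3 segments, in percent, with the left bar of each pair for 4 months and the right bar for 28 months. The jejunal share of Gip is 50.0% and then 95.4%, and the ileal share of Nts is 66.8% and then 98.4%.

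To ask which segment differences were alike at both ages, a limma model with segment and age as terms was fitted to the 6 intestinal arrays over all 13136 genes, with Benjamini-Hochberg adjustment over them. The ages are the repeats of a segment in this fit, so its error holds whatever differed between ages in a segment, and the p-values do not measure the spread between mice. Cck, Sct, Sst, Pyy, Insl5 and Ppy, 6 of the 10, differed between the 3 segments, against 27.4% of all genes. Sst had the smallest adjusted p in limma, 0.0036, and Ppy the largest among those called, 0.0334. Gcg, Gip and Nts missed the threshold, at adjusted p of 0.0589, 0.0663 and 0.0663 in limma. Chga was far from it, at 0.781. With any 1 intestinal array left out fewer genes were called, among the 10 and among all genes. A segment then keeps a lone array, so such a fit cannot tell whether the count rests on particular arrays.

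Against jejunum, distal colon was lower for 4 genes, Gip, Cck, Sct and Sst, and higher for 3, Pyy, Insl5 and Ppy, where 12.3% and 21.5% of all genes were called. The difference for Insl5 was 4.66 on the log2 scale (95% interval 3.67 to 5.66, limma adjusted p = 0.0049), from signals held at the floor in jejunum. For Pyy it was 3.21 (2.03 to 4.38, limma adjusted p = 0.0122) and for Cck -3.76 (-4.96 to -2.57, limma adjusted p = 0.0093). Gip had the widest interval of the 4 lower genes, -5.83 (-9.32 to -2.34, limma adjusted p = 0.0333), and the largest residual SD of the 10 genes, 1.95. Sst had the narrowest, -2.02 (-2.32 to -1.72, limma adjusted p = 0.0023). The signals of Gip and Cck in distal colon and of Ppy in jejunum were held at the floor at both ages too, so those differences also depend on it.

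Against ileum, distal colon was lower for Nts, Cck, Sct and Sst, 4 genes, and higher for Insl5 and Ppy, 2 genes, beside 9.83% and 16.4% of all genes. The difference for Nts was -4.69 (95% interval -7.61 to -1.76, limma adjusted p = 0.0432). It depends on the floor, at which Nts in distal colon at 28 months was held. The differences for Cck and Ppy do so too, from Cck in distal colon at both ages and Ppy in ileum at 4 months. For Pyy it was 1.09 with an interval of -0.08 to 2.27, which spans 0 (limma adjusted p = 0.134). Between ileum and jejunum limma called 0 of the 10 genes in either direction, where 0.0837% of all genes were higher and 0.403% lower in ileum. Unadjusted p was under 0.05 for 4 genes, of which Nts, Gcg and Pyy were higher in ileum, by 3.60, 2.52 and 2.11, and Cck lower, by a difference of -1.5. Sct and Sst differed between these segments by 0.05 (interval -0.89 to 0.98) and -0.04 (interval -0.34 to 0.26), so for Sst a difference above 0.34 in size lies outside the interval.

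**Figure D3:**
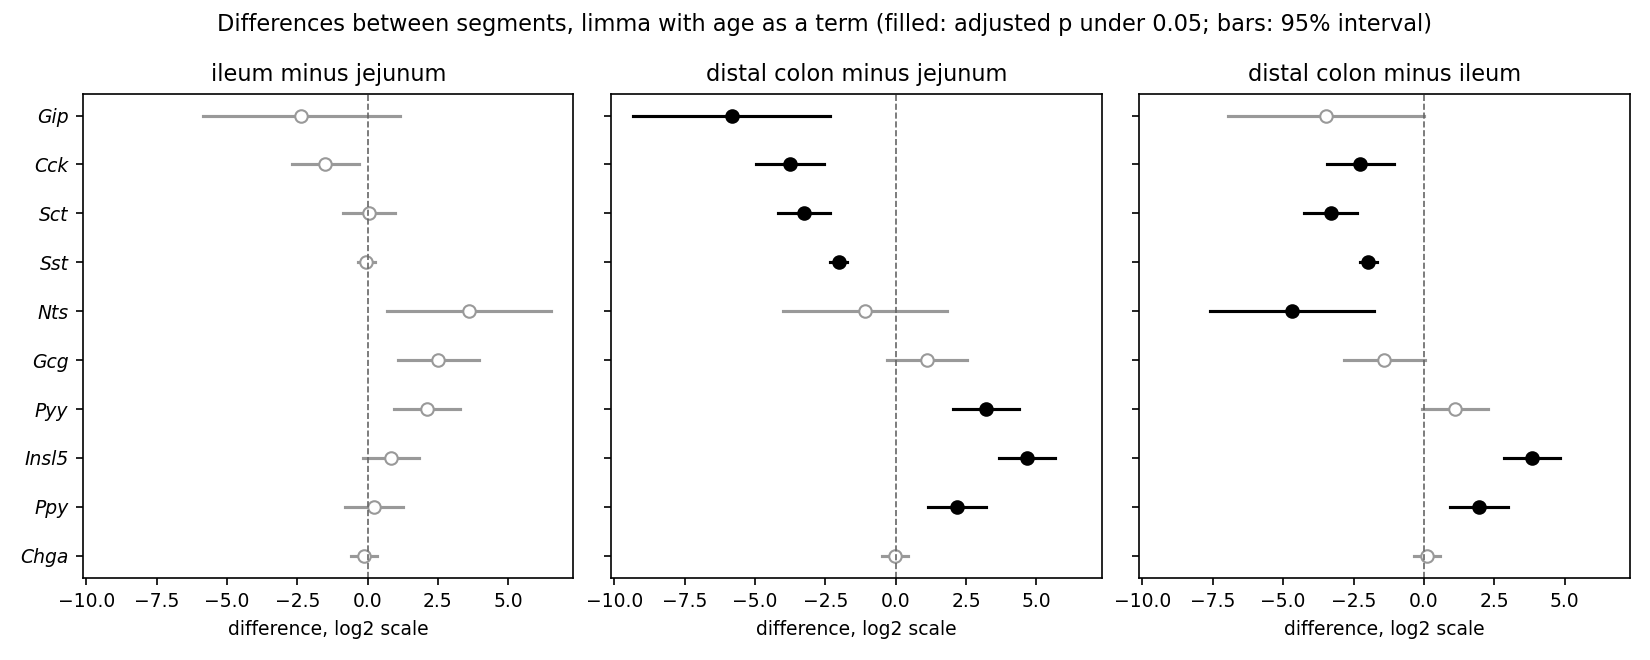
Difference between segments for each gene in the limma fit, on the log2 scale, with 95% intervals; filled points have an adjusted p under 0.05, and n is 6 arrays. In the middle panel Gip, Cck, Sct and Sst lie left of 0 and Pyy, Insl5 and Ppy right of it, from -5.83 for Gip to 4.66 for Insl5.

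Between ages, Nts was called in jejunum and distal colon and Gcg in jejunum and ileum, while Gip, Cck, Pyy, Insl5 and Ppy were called in a single segment each. In jejunum 0 of 8 measured genes were 2-fold higher at 28 months and 2 were lower, Nts and Gcg, where 0.252% and 1.02% of all genes were called, and the median log2 ratio of the 8 was -0.29. In ileum all 10 were measured: 3 were higher, Gcg, Pyy and Insl5, and 2 lower, Gip and Cck, against 0.888% and 1.66% of all genes, with a median of 0.39. In distal colon 1 of 8 was higher, Ppy, and 1 lower, Nts, against 0.51% and 0.526%, with a median of 0.20. The median over all genes was 0.03 in each segment, and where a gene had several probe sets, the SD of their log2 ratios had a median of 0.113 in jejunum, 0.135 in ileum and 0.139 in distal colon, which covers no difference between mice. Just inside the threshold lay Gcg in ileum at 2.02-fold, and just outside it Insl5 in distal colon at 1.97-fold.

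Across the 3 segments together, limma called 0 of the 10 genes between ages, and 0 of all genes, at an adjusted p under 0.05. At an unadjusted p under 0.05 there were 2 of the 10, beside 7.71% of all genes. Sst differed by -0.45 (95% interval -0.70 to -0.20) and Insl5 by 0.83 (interval 0.01 to 1.64), both with a limma adjusted p of 0.628. Segments stand in for replicates in this comparison and come from the same mice, so it asks only whether a shift was alike along the gut. For Gcg, whose ratios were opposite in jejunum and ileum, the shift over the segments was 0.10 (interval -1.06 to 1.26).

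**Figure D4:**
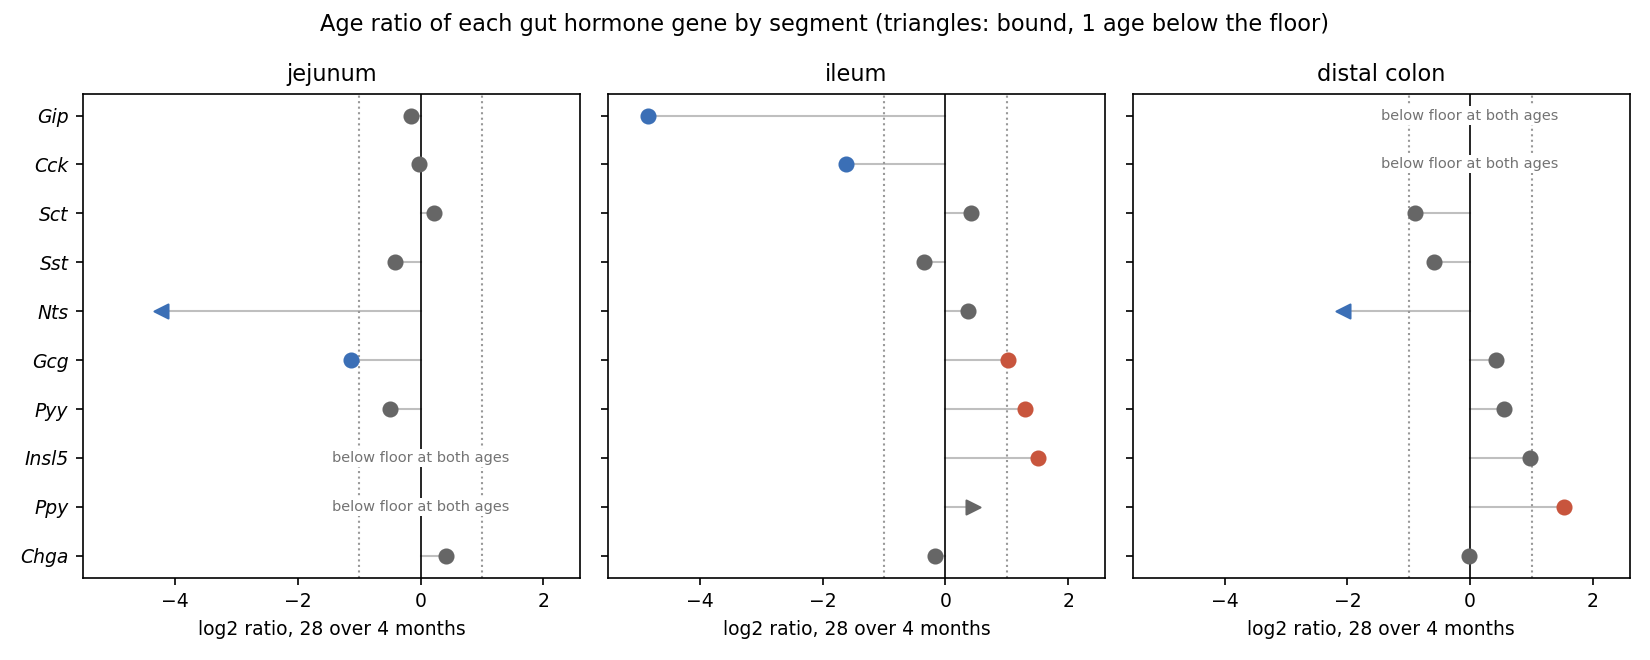
Log2 ratio of 28 over 4 months for each gene in jejunum, ileum and distal colon; circles are ratios of signals above the floor, triangles are bounds with 1 age below it, and dotted lines mark 2-fold. In ileum Gip and Cck lie at -4.85 and -1.61, and Gcg, Pyy and Insl5 at 1.02, 1.30 and 1.5.

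The promoters of 4 of these genes are printed because they stand on opposite sides in ileum: Gip and Cck were lower there at 28 months, and Gcg and Insl5 higher. Pyy, also higher there, is left out, and for Insl5 the start with more of the matches below is printed, so the choice favours windows with matches. Each run is the 250 bases before the start of transcription, 5' to 3' on the gene's strand, from RefSeq on GRCm38.p6, in which all 10 genes had an entry. Capitals mark matches, on either strand, to AGATAA, a core bound by GATA factors, TTTATG, a core bound by CDX factors, TATAAA, the TATA box, CAGATG, an E-box bound by NEUROD1, or TGACGTCA, the cAMP response element.

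Gip chr11:96024295-96024544 plus strand: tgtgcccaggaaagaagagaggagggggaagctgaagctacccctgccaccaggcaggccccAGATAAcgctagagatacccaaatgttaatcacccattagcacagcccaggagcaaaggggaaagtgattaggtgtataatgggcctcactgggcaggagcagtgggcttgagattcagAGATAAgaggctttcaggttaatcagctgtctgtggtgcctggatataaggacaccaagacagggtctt
Cck chr9:121495695-121495944 minus strand: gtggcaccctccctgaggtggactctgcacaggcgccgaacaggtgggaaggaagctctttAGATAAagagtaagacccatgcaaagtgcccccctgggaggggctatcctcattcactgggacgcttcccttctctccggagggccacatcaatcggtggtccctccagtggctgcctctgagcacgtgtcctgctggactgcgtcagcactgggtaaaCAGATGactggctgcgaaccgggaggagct
Gcg chr2:62483654-62483903 minus strand: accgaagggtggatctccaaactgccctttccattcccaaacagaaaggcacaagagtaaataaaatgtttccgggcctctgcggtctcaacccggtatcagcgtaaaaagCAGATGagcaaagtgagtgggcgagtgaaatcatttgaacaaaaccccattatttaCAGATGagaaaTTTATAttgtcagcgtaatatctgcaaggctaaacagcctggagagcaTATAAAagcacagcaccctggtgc
Insl5, second of its starts, chr4:103026729-103026978 minus strand: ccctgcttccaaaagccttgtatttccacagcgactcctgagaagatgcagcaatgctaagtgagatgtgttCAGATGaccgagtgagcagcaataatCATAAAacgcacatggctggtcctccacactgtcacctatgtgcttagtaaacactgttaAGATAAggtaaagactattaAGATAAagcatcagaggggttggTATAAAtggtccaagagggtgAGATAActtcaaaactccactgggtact

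The Gip window holds AGATAA at 188 and 69 bases before the start, and the Cck window holds it at 189 bases and CAGATG at 30. In the Gcg window CAGATG stands at 139 and 83 bases and TATAAA at 24, with a further TATAAA on the opposite strand at 72. That of Insl5 has AGATAA at 92, 72 and 28 bases, CAGATG at 178, TATAAA at 49 and TTTATG on the opposite strand at 152. The window of its first start, not printed, holds only a TATAAA on the opposite strand at 88 bases, and neither window of Pyy, also higher in ileum, holds any of the 5 motifs. Counting a gene once over its starts, AGATAA was found for 4 of the 10 genes, Gip, Nts, Cck and Insl5, and in 9.99% of all 32851 windows of this length. CAGATG was found for 4, Gcg, Cck, Sct and Insl5, and in 14.4% of windows. TATAAA was found for 4, Gcg, Sct, Insl5 and Ppy, and in 12.4% of windows. TTTATG was found for Insl5 alone, and in 10.8%, and TGACGTCA for Sst alone, 48 bases before its start, and in 1.55%. A gene with several starts, such as Insl5 or Pyy, can match in any of them. The counts of genes are therefore not like for like with the shares of single windows. AGATAA thus occurs beside genes that were lower in the older ileum and beside one that was higher, and a match is no evidence of binding.

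Genes that mark position along the gut also differed between ages, most of all in ileum, where Gip and Cck were lower but Sct and Sst, the other upper gut hormones, were not called. Of 12 upper small intestine markers measured there, 10 were lower and 0 higher at 28 months, beside 1.66% and 0.888% of all genes, with a median log2 ratio of -3.47. In jejunum 1 of the same 12 was lower, beside 1.02% of all genes, and the median was -0.22. Lactase, encoded by Lct, was 14054 units in ileum at 4 months and 92.1 units at 28 months, at least 127-fold lower. Fabp1, which carries fatty acids in enterocytes, was 30.5-fold lower in ileum, Apoc2, an apolipoprotein, 25.3-fold lower, and Cyp2b10, a cytochrome P450, at least 25.9-fold lower. These lists were drawn up with results on these arrays known, so their direction is no independent evidence.

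Ileum markers lay the other way. All 8 had ratios above 0 in ileum, with a median of 0.84, and 2 of them were called higher, beside 0.888% of all genes. They were Fgf15, the bile acid induced hormone of the ileum, at 210 and 1419 units, 6.77-fold higher, and Slc10a2. The latter takes up bile acids from the lumen, and it was 2.75-fold higher and named after its values were seen. In jejunum 2 of 5 measured ileum markers were lower and 0 higher, beside 1.02% and 0.252% of all genes, with a median of -0.75. They were Cubn, which encodes the cubilin receptor, at 3631 and 73.1 units, at least 32.8-fold lower, and Ceacam20, 2.84-fold lower. In distal colon 1 of 6 was lower, beside 0.526% of all genes: Slc51a, a bile acid exporter subunit, by at least 5.55-fold. Of 9 genes of the distal colon list measured in ileum, 4 were higher and 1 lower at 28 months, beside 0.888% and 1.66% of all genes. The median of the 9 was 0.34, but not all of them marked colon on these arrays. Best2, a bestrophin channel that was 1800 and 2679 units in distal colon, was 3.09-fold higher in ileum, and Car1, a carbonic anhydrase, 2.75-fold lower. Hoxc8, a homeobox gene, was 2.97-fold higher in ileum, yet it was below the floor in distal colon, at 26.4 and 24.1 units. Ang4, also on the list, was below the floor in distal colon too, at 107 and 92.3 units. The others higher, Hoxb6 and Sycn, were named like Ang4 after their values were seen, and Sycn is also a gene of pancreatic acinar cells. Over all probe sets, ileum and jejunum had r = 0.986 at 4 months and 0.975 at 28 months. The part of position along the gut in the hormone ratios was not tested.

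The 3 genes nearest to each hormone gene by profile were also found. Adh6a, Lct, Cyp2b10, Cubn, Ceacam20, Best2 and Prdm14 among them are on the marker lists too, which were drawn up with results on these arrays known. Likeness was measured as the root mean square difference of centred log2 signals over the 10 arrays, among 10161 genes, and the median over all candidates was 1.05 for Ppy to 2.72 for Gip. Nearest to Gip were Adh6a at 0.30, an alcohol dehydrogenase gene, Lct at 0.61 and Cyp2b10 at 0.75. Nearest to Nts were Cubn at 0.69, Naaladl1 at 0.78 and Bcl2l15 at 0.85. Gcg lay nearest to Ceacam20, Slc1a1 and Prss30, at 0.42, 0.46 and 0.50. Insl5 lay nearest to Best2 at 0.18, followed by Cldn8 at 0.47 and Mboat1 at 0.50, and Ppy to Prdm14 at 0.16, Foxd2 at 0.20 and Itgb8 at 0.23.

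For Pyy the nearest were Pgm5, Sema3c and Hsd11b2, at 0.46, 0.48 and 0.49. Cck had Slc23a4, Mmp10 and Cidec at 0.33, 0.34 and 0.41. Sct had Hkdc1, Ifit1bl2 and Hnf4g at 0.19, 0.36 and 0.39, and Sst had Hnf4g, Ceacam18 and Slc39a5 at 0.30, 0.30 and 0.34, so Hnf4g, a nuclear receptor gene, stood near both. Chga had the closest companion of all 10, Cracdl at 0.15, then Nipal2 at 0.21 and Plcb3 at 0.23. Liver and spleen give 4 of the 10 points and sit near the floor for most of these genes.

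The secretory machinery that endocrine cells share gave 1 call between ages in the 3 segments. Of the genes of secretory granules and prohormone processing, 16 were measured in jejunum and 17 in each other segment. In jejunum 0 were higher and 1 lower, beside 0.252% and 1.02% of all genes. The lower gene was Resp18, an endocrine secretory protein gene, at 249 and 113 units, 2.21-fold lower, and the list's median was -0.21. In ileum 0 were called and the median was 0.14, and in distal colon 0 were called and the median was -0.17. Chgb, the gene of chromogranin B, gave 5798 and 8790 units in jejunum, 4603 and 4180 units in ileum and 5447 and 5212 units in distal colon, and Scg3, a granule protein gene, had a log2 ratio of -0.73 in distal colon. Several of these genes, such as Snap25, are also neuronal.

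Transcription factors of the endocrine lineage also gave 1 call. Neurog3, the factor that commits epithelial progenitors to the endocrine fate, was 169 units in jejunum at 4 months and 366 units at 28 months, 2.17-fold higher, and was 187 and 97.9 units in ileum. It was the 1 gene called of 13 measured in jejunum, beside 0.252% of all genes higher there. In ileum 0 of 11 and in distal colon 0 of 13 were called. Pdx1, a factor of the duodenum and pancreas, was above the floor in jejunum alone among the 5 tissues, at 1184 and 1863 units. Isl1, which endocrine cells and neurons express, was 690 and 366 units in distal colon, and Foxa1, an epithelial forkhead factor, 914 and 1819 units in ileum. Each lay short of 2-fold.

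Other hormone and amine genes of endocrine cells, 14 on the array, gave 3 calls in the intestine, all in ileum, the segment with the most calls over all genes. The difference between segments was not tested. There 1 of 10 measured was higher and 2 were lower at 28 months, beside 0.888% and 1.66% of all genes, with 0 of 11 called in jejunum and 0 of 8 in distal colon. Ghrl, which encodes ghrelin, a hormone of the stomach and upper gut, was 828 and 838 units in jejunum and 331 and 125 units in ileum, 2.65-fold lower there. Ddc, the decarboxylase of serotonin synthesis, was 6019 and 2834 units in ileum, 2.12-fold lower. Penk, an opioid peptide gene that is also neuronal, was 170 and 365 units in ileum, 2.15-fold higher. It was higher at 28 months in spleen too, at 337 units against 107 units, below the floor, at 4 months. Tac1, which encodes substance P, was 596 and 959 units in jejunum, short of 2-fold.

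Of the peptidases that cut gut hormones, many of them on the brush border, 3 of 7 measured in jejunum were lower and 0 higher, beside 1.02% and 0.252% of all genes, with a median of -0.76. Dpp4, which inactivates GLP-1 and GIP and neighbours Gcg on chromosome 2, was 5170 and 2302 units there, 2.25-fold lower, against 8672 and 8931 units in ileum. Anpep, aminopeptidase N, was 2.89-fold lower in jejunum, and Ace, angiotensin converting enzyme, 3.52-fold lower. In ileum 2 of 8 were lower and 0 higher, Ace by 6.23-fold and Mme, neprilysin, by 2.21-fold, beside 1.66% of all genes lower, but 5 of the 8 had ratios above 0 and the median was 0.10. In distal colon 0 of 7 were called.

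**Figure D5:**
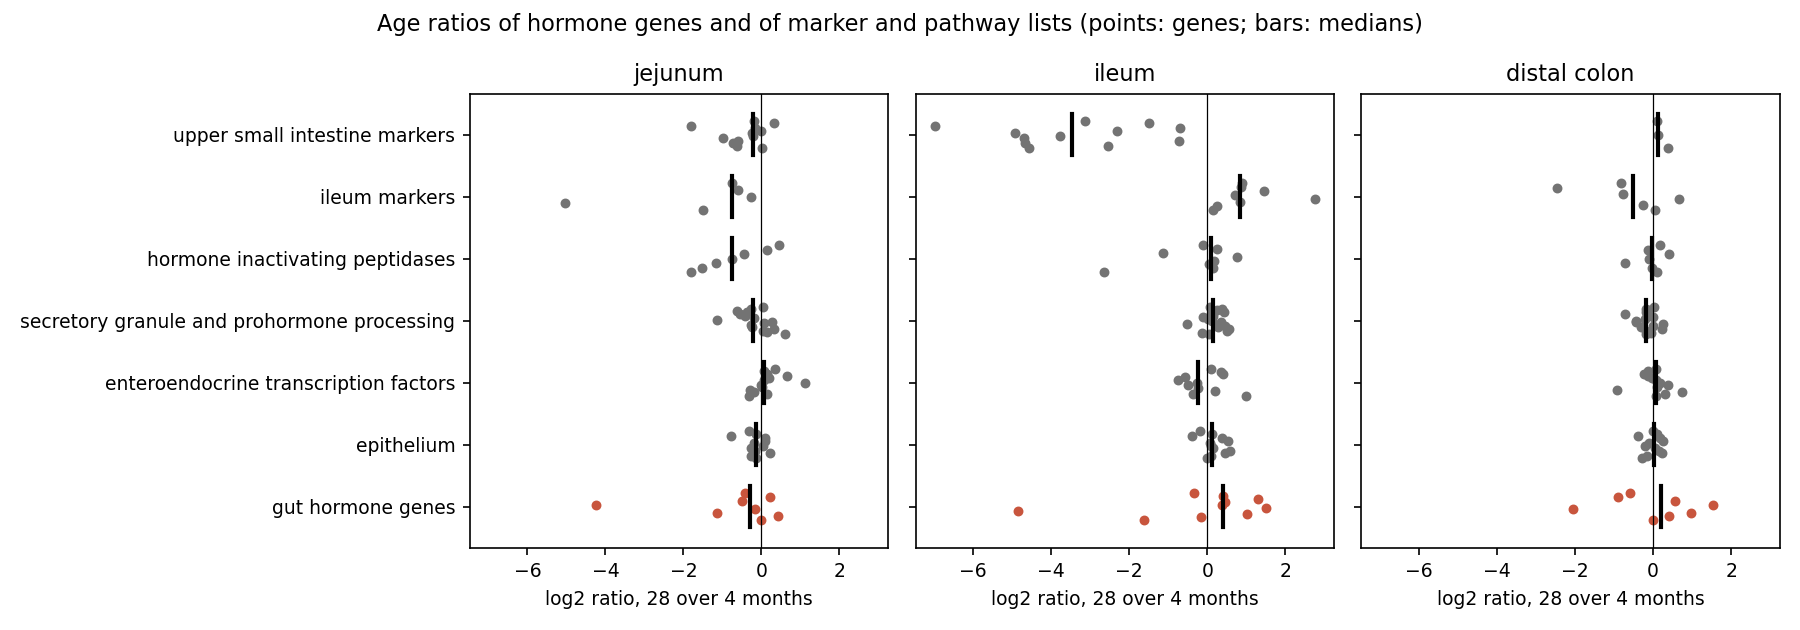
Log2 ratio of 28 over 4 months of each measured gene in the hormone set and in 6 marker and pathway lists, by segment, with a bar at each list's median; the vertical scatter of points has no meaning. In ileum the medians are -3.47 for upper small intestine markers, 0.84 for ileum markers, 0.14 for granule genes and 0.39 for the hormone genes.

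Markers of the other cells in the tissue were read beside these results. Of 12 epithelial genes, all above the floor in every segment, 0 were called, with medians of -0.15 in jejunum, 0.11 in ileum and 0.03 in distal colon. The 8 smooth muscle genes had medians of 0.14, 0.78 and -0.52, and Synpo2, a muscle gene, was the 1 called, higher in ileum, beside 0.888% of all genes. The summed signal of the 8 muscle genes was 25694 and 42398 units in ileum and 108483 and 75396 units in distal colon at 4 and 28 months. Those of enteric neurons had medians of -0.22 over 8 measured, 0.42 over 9 and -0.29 over 9, with 0 called. Over the list's 11 genes the signals summed to 4096 and 2863 units in jejunum, 4336 and 4796 units in ileum and 7137 and 4908 units in distal colon. Absorptive enterocyte genes, several of which also mark the upper gut, were lower for 4 of 11 and higher for 0 in jejunum, beside 1.02% and 0.252% of all genes. In ileum 6 of 11 were lower and 1 higher, beside 1.66% and 0.888%. The part of these shifts in the hormone ratios was not tested.

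Gcg, Sst and Ppy are also hormones of the pancreatic islets, and acinar genes of the exocrine pancreas were bright in jejunum, where the 11 of them summed to 78093 units at 4 months and 78624 units at 28 months, against 5217 and 3245 units in ileum and 1159 and 1192 units in distal colon. The 8 islet markers on the array summed to 867 and 822 units in jejunum and 831 and 786 in ileum. In distal colon the sums were 725 and 726, and in liver and spleen 547 to 613. Above the floor at 4 and 28 months were 4 and 4 of the 8 in jejunum and 4 and 3 in ileum. In distal colon, liver and spleen 2 were above it at each age. Ins2, an insulin gene, was 203 and 151 units in jejunum and 128 to 171 units in liver and spleen, and G6pc2 and Slc30a8, both islet genes, were at most 25.7 and 36.1 units on all 10 arrays. Iapp, an islet hormone gene, went the other way, at 172 and 115 units in jejunum and 198 and 168 units in ileum, above the floor. It was 61.7 and 67.7 units in distal colon and 54.9 to 62.2 units in liver and spleen. Spleen at 4 months also held acinar signal, 45745 units over the list with Cpa1, a carboxypeptidase, at 3320 units, and there Gcg, Ppy and Sst were 27.7, 47.5 and 91.8 units, all below the floor. The part of pancreatic tissue in the hormone signals was not tested.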

How the data were processed

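Pooled RNA was read on Affymetrix Mouse Genome 430 2.0 arrays, per the labels. The authors deposited a log2 signal for each probe set; the submitters' processing notes name MAS5 and affy without version or role, and how arrays were normalised is not given. The base was taken from the range, 2.71 to 14.8. The log was undone, each array was scaled to a mean of 500 units after trimming 2% at each end, by factors of 2.42 to 2.57, and lower signals were raised to the median of all signals, 111 units. A gene was its probe set of highest mean signal, 18194 genes from 34958 probe sets with a single gene in the platform annotation; 932 had several, and 9211 were unnamed here. A gene was measured in a tissue when above the floor at either age.

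Intestinal arrays were fitted with limma 3.58.1 (R 4.3.3; lmFit and eBayes, 2 residual degrees of freedom, 4.46 with the prior), tested on simulated data. Other steps used Python 3.11.15. List genes named are the 4 per list with the largest intestinal age ratios at 2 floors or more, beside label check genes and defining markers, and companions are the 3 nearest genes that reach 4 floors. The genes, lists and tests were chosen with earlier results of these data known. Alternatives were other floors, scalings, thresholds, probe set choices and limma settings, among them the percentile 25 and percentile 75 floors.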

Additional observations from a re-analysis of the deposited data

Results flagged for a closer look

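Gcg, the proglucagon gene, was lower at 28 months in jejunum, with a log2 ratio of -1.13, and higher in ileum, with a log2 ratio of 1.02, each past 2-fold. It drew attention because the same comparison of ages ran in opposite directions in these segments. With 1 array per segment and age, the difference between the segments was not tested.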

How the results depend on the processing

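Of 26 ratios of a hormone gene in a segment, 24 kept their sign under each of up to 9 alternatives that measured them, the exceptions being Cck in jejunum and Chga in distal colon, both near 0. All 9 called ratios kept their sign wherever they were measured, and 0 reversed. Another floor or probe set choice could not turn a sign, since each gene had 1 probe set and a floor cannot reverse the order of the ages. Of the 9, 5 stayed called under every alternative that measured them. Nts in distal colon and Insl5 in ileum, both among those 5, were not measured with the floor at percentile 75. In jejunum the count of lower genes was 2, and 1 without probe sets shared by several transcripts, which drops Gcg and Cck, 1 with the epithelial median subtracted and 1 at 3-fold. In ileum 3 higher genes became 0 at 3-fold and 2 with the floor at percentile 75, without those probe sets or with the epithelial median subtracted, and 2 lower genes became 1 with the floor at percentile 75 and 1 without those probe sets. In distal colon 1 higher gene became 0 with the floor at percentile 75, 2 with equal medians, 2 at 1.5-fold and 0 at 3-fold, and 1 lower gene became 0 at that floor and 3 at 1.5-fold. The count with the same brightest segment at both ages was 8. It was 7 with equal medians or quantile normalisation, and 6 without the shared probe sets. Genes that differed between segments in limma numbered 6, and 0 to 4 with 1 array left out, when a segment keeps a lone array that is assumed to vary like the others. The genes called between segments numbered 9 with 16 units added in place of the floor and 9 with all 10 arrays. The age count was 0 in every limma setting. The cause of these moves was not tested beyond the dropped probe sets. The labels give no replicate numbers to pair; the limma fit holds age as a term and so compares segments within each age's pool of mice. Signals near the floor limit Ppy and Insl5 in ileum.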

Other observations

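Receptors of the gut hormones were mostly below the floor. Of 18 on the array, 5 were measured in jejunum, 3 in ileum and 4 in distal colon, and 0 were called between ages. Sort1, which encodes sortilin, a neurotensin binding protein, was 1742 and 1911 units in jejunum at 4 and 28 months and 3298 and 3365 units in distal colon. Npy1r, a receptor for peptide YY and neuropeptide Y, was 248 and 271 units in distal colon and 37.3 to 39.7 units in the small intestine.

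Genes by which endocrine cells sense nutrients gave 0 calls between ages in each segment, with 5 measured in jejunum, 6 in ileum and 7 in distal colon. Slc5a1, the sodium-glucose transporter also carried by absorptive cells, was 18530 and 10024 units in ileum. Ffar4, a long chain fatty acid receptor, was 149 and 245 units in ileum and 473 and 565 units in distal colon. Trpa1, a channel of enterochromaffin cells, was 276 and 366 units in jejunum and 188 and 130 units in ileum.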
